A study of Homo sapiens with 8 samples.

Results

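The pyruvate dehydrogenase complex and its kinases and phosphatases were followed in 22Rv1, a widely used line of human prostate carcinoma cells, 36 h after transfection with 20 nM of a miR-194 mimic, a double-stranded RNA that stands in for the microRNA, or with 20 nM of a negative control RNA. The members were the 10 rows of the deposited count table, of 23346 in all, whose symbol was PDK1, PDK2, PDK3, PDK4, PDHA1, PDHB, DLAT, PDHX, PDP1 or PDP2. There were 4 mimic and 4 control libraries, all from cells of passages 16 to 17 grown in serum-containing medium. PDK4 was chosen by its measured log2 fold change in this comparison, the highest among well-expressed genes, so its values are given as a description with no test. The other 9 were taken for their roles. Whether replicates came from separate cultures is not in the labels, and p-values therefore cover the spread among these 8 libraries alone. Without untransfected cells, a higher level with the mimic cannot be told apart from a lower level with the control RNA.

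The complex sits in the mitochondrial matrix and turns pyruvate into acetyl-CoA, which links glycolysis to the citric acid cycle. Its first enzyme is a tetramer of alpha chains (PDHA1) and beta chains (PDHB), its core acetyltransferase is DLAT, and PDHX tethers the dihydrolipoamide dehydrogenase DLD to the core. The kinases PDK1 to PDK4 phosphorylate the alpha chain and switch the complex off, and the phosphatases PDP1 and PDP2 switch it back on. PDK4 is best known for its induction by fasting, fatty acids and glucocorticoids in muscle and liver.

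The guide strand of miR-194 is shown with matches to its seed in PDHB, DLAT and PDK1, with which the transfected RNA could pair. The GACGTA windows of PDK4 and PDK1 are not seed matches and are shown for a motif described below. The microRNA is from RefSeq (GRCh38.p14), with the seed, bases 2 to 8, in capitals. The other windows are at most 30 bases of the mRNA strand, read 5′ to 3′ from GENCODE 29 transcripts (GRCh38), with the match in capitals.
hsa-miR-194-5p: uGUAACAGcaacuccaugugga
PDHB, 3′ UTR, 7mer-m8 site: cttccttttgtCTGTTACggttgccatgt
DLAT, coding sequence, 8mer match: tagcatgatgtCTGTTACActcagttgtga
PDK1, 3′ UTR, 8mer site: aggaaacagctCTGTTACAgagaggggttc
PDK4, 3′ UTR, GACGTA: gcaaatagcctgGACGTAagagattctcat
PDK1, 3′ UTR, GACGTA: agcagagcctgaGACGTAtctgcagatcct

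A 7mer-m8 site matches bases 2 to 8 of the microRNA, a 7mer-A1 site matches bases 2 to 7 followed by an A, and an 8mer site has both. The PDHB site lies at chr3:58427824-58427830 on the minus strand, at position 298 of a 3′ UTR of 445 bases, and 5.16% of the 3′ UTRs within 20% of that length held an 8mer or 7mer site. DLAT held an 8mer within its coding part, at chr11:112062429-112062436 on the plus strand, and 2.5% of coding sequences within 20% of its length held one. That share counts 8mers alone, and over coding sequences of any length 11.6% held an 8mer or 7mer match. The 3′ UTR of DLAT held only a match to bases 2 to 7. PDHX had a 7mer-m8 match in its coding sequence at chr11:34978169-34978175, and 10.4% of coding sequences of like length held an 8mer or 7mer match.

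PDK1 had 1 8mer, 1 7mer-m8 and 1 7mer-A1 site, all in an annotated 3′ UTR of 12700 bases, with the 8mer at position 4645, at chr2:172600614-172600621 on the plus strand. The 8mer was the first of these sites. The median length of the annotated PDK1 transcripts was 2990 bases, too short to reach any of them. Of the 114 3′ UTRs of like length, 76.3% held an 8mer or 7mer site. No 8mer or 7mer match was found in the 3′ UTR or coding sequence of PDK2, PDK3, PDK4, PDHA1, PDP1 or PDP2. PDK4 held GACGTA at chr7:95584519-95584524 on the minus strand and PDK1 held it at chr2:172597651-172597656 on the plus strand. This motif, and GACAGTA, which PDHA1 and PDK1 held, came from an earlier scan of these same libraries, so a match supports nothing here. GACAGTA was in 10.1% of the 3′ UTRs of the length of that of PDHA1. GACGTA was in 5.43% of the 3′ UTRs of the length of that of PDK4, on the mRNA strand, and in 26.3% of those of the length of that of PDK1. A match is a description of the sequence and does not show binding.

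The kinases did not move together. PDK4 had 52.0, 51.6, 45.9 and 41.6 CPM (read counts scaled to the TMM-normalised library size) in the mimic libraries, against 13.3, 12.2, 12.8 and 13.9 CPM in the control libraries. Each mimic library was above every control library. In bulk RNA, a change in the number of expressing cells and a change in RNA per cell cannot be told apart. The means were 47.8 ± 4.98 CPM with the mimic and 13.03 ± 0.725 CPM with the control (SD, n = 4 each). The log2 fold change was 1.87 ± 0.08 (SE), or 3.67-fold. This was the highest fold change among the 10303 genes whose log2 CPM averaged 3 or more, and the 4th highest among all 14977 tested genes. PTPMT1, next below it among the well-expressed genes, stood at 1.79.

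**Figure D1:**
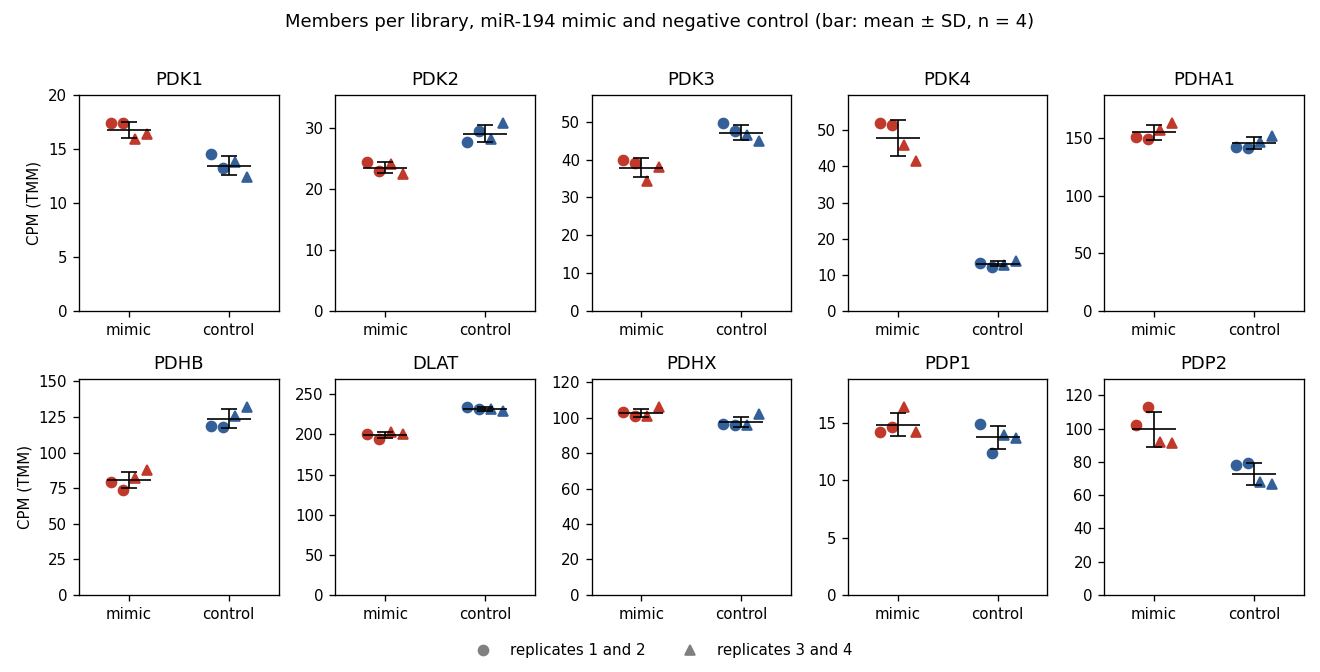
CPM (y axis, each panel from 0) of the 10 members in each library, with the 4 mimic libraries left and the 4 control libraries right. Circles are replicates 1 and 2, triangles replicates 3 and 4, and black bars the mean ± SD (n = 4). PDK4 sits between 41.6 and 52.0 CPM with the mimic and between 12.2 and 13.9 CPM with the control, and PDHB is lower in every mimic library than in any control library.

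PDK1, the paralog known as a target of hypoxia-inducible factor, had 17.4, 17.4, 15.9 and 16.4 CPM with the mimic, against 14.5, 13.2, 13.8 and 12.4 CPM with the control. The groups did not overlap, and PDK1 rose by 0.32 ± 0.06 on the log2 scale (SE, adjusted p = 0.00236, edgeR quasi-likelihood test with Benjamini-Hochberg adjustment over all tested genes, as for all adjusted p below). PDK2, the most widely expressed paralog across tissues, had 24.4, 22.9, 24.1 and 22.5 CPM with the mimic, against 27.7, 29.5, 28.2 and 30.8 CPM with the control. It fell by 0.31 ± 0.05 (SE, adjusted p = 0.000667), again without overlap. PDK3, an isoform with high activity that responds little to the complex's usual feedback, had 39.9, 39.1, 34.3 and 37.9 CPM with the mimic, against 49.6, 47.4, 46.4 and 44.8 CPM with the control. It fell by 0.32 ± 0.05 (SE, adjusted p = 0.00078), and no values overlapped.

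The log2 fold change of PDK4 was 1.56 above that of PDK1, 2.18 above that of PDK2 and 2.19 above that of PDK3. These differences carry no test, since PDK4 was picked for its rise. In the annotation, exons of SAMD14 on the opposite strand cover 52.7% of the exonic bases of PDK2. The sources used here do not give whether strand was used in counting. SAMD14 averaged 4.26 ± 0.390 CPM with the mimic and 4.28 ± 0.505 CPM with the control (SD, n = 4 each), and did not pass (log2 fold change -0.01, adjusted p = 0.948).

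The sums and shares that include PDK4 are a description, since they carry the value by which it was chosen. PDK1, PDK2 and PDK3 together had 78.1 ± 3.17 CPM with the mimic and 89.6 ± 1.75 CPM with the control, while all 4 kinases together had 126 ± 7.63 CPM with the mimic and 103 ± 1.73 CPM with the control (SD, n = 4 each). To set the paralogs beside each other, CPM was divided by the length of the longest annotated transcript. On that scale PDK4 made up 32.5 ± 1.84% of the summed PDK level with the mimic and 9.71 ± 0.583% with the control. PDK3 remained the highest paralog, with 48.0 ± 1.87% with the mimic and 65.3 ± 1.63% with the control, and PDK2 had 16.7 ± 1.05% with the mimic and 22.5 ± 1.38% with the control (SD, n = 4 each).

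The share of PDK1, 2.88% with the mimic and 2.53% with the control, depends on its long annotated transcript of 14193 bases. With the median length of the annotated transcripts it was 11.5% with the mimic and 10.0% with the control. By coding length, an alternative chosen after seeing the data, PDK4 had 38.5% with the mimic and was then the highest paralog there, while PDK3 had 30.2% with the mimic, and in the control libraries PDK4 had 12.9% and PDK3 46.1%. The order of PDK3 and PDK4 with the mimic therefore depends on the length used.

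**Figure D2:**
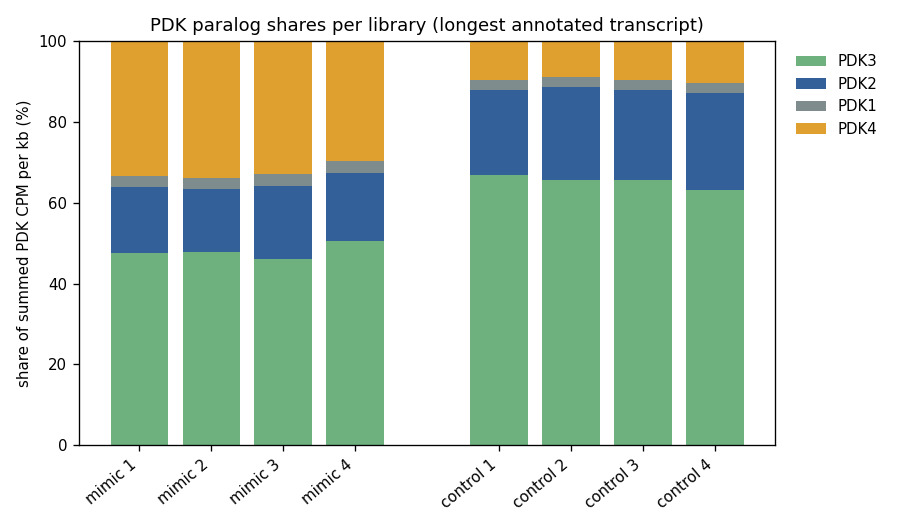
Share of each PDK paralog in the summed PDK CPM per kilobase (y axis, %), 1 stacked bar per library, with the 4 mimic libraries left and the 4 control libraries right. The PDK4 part at the top spans 29.8% to 33.8% in the mimic libraries and 9.06% to 10.5% in the control libraries.

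The chains of the first enzyme parted. PDHB, the beta chain, had 79.1, 73.6, 82.5 and 87.6 CPM with the mimic, against 119, 118, 126 and 132 CPM with the control. Every mimic library was below every control library, and PDHB fell by 0.62 ± 0.06 on the log2 scale (SE, adjusted p = 5.88e-06), a fold of 0.652. Of all tested genes, 5.74% were called with a log2 fold change at least this large in size. PDHA1, the X-linked alpha chain that carries the phosphorylation sites, had 151, 149, 157 and 163 CPM with the mimic, against 142, 141, 147 and 152 CPM with the control. Its groups overlapped, and it did not pass (log2 fold change 0.09 ± 0.04 SE, adjusted p = 0.0881), while with the replicate number as a block it passed (adjusted p = 0.016) and also without mimic replicate 2 (adjusted p = 0.0491).

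There were 0.523, 0.495, 0.527 and 0.538 PDHB counts per PDHA1 count in the mimic libraries, against 0.839, 0.837, 0.854 and 0.873 in the control libraries. PDHA1 shares 24.9% of its exonic bases with MAP3K15 on the opposite strand, which had 0.461 ± 0.116 CPM with the mimic and 0.399 ± 0.0693 CPM with the control (SD, n = 4 each), and PDHB shares 15.9% with the antisense gene AC135507.1. The ratio of PDHB to PDHA1, chosen after the values were seen, needs no scaling between libraries and did not overlap between the groups. The testis paralog of the alpha chain, PDHA2, had no count in any library. That allows at most 0.0635 to 0.0924 CPM, for 3 counts of the deepest and of the shallowest library, which covers counting error only.

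Of the core proteins, DLAT was lower and PDHX was not called. DLAT had 201, 193.6, 203 and 200 CPM with the mimic, against 234, 232, 232 and 229 CPM with the control, and fell by 0.22 ± 0.03 on the log2 scale (SE, adjusted p = 0.000148) without overlap. PDHX had 103, 101, 101 and 106 CPM with the mimic, against 96.6, 96.1, 95.6 and 102 CPM with the control. The highest control library lay inside the mimic range, and PDHX did not pass (log2 fold change 0.07 ± 0.04 SE, adjusted p = 0.135). PDHX shares 8.54% of its exonic bases with APIP on the opposite strand, whose log2 fold change was 0.02 (adjusted p = 0.695), and DLAT shares 4.76% with PIH1D2. PIH1D2 had 1.89 ± 0.342 CPM with the mimic and 2.60 ± 0.412 CPM with the control (SD, n = 4 each), and was called lower like DLAT (log2 fold change -0.45, adjusted p = 0.0424), and its part in the DLAT counts was not tested.

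Of the phosphatases, PDP2 was higher with the mimic and PDP1 was not called. PDP2, described as the less calcium-sensitive form, had 102, 113, 91.9 and 91.2 CPM with the mimic, against 78.1, 79.2, 68.1 and 66.5 CPM with the control. It rose by 0.45 ± 0.08 on the log2 scale (SE, adjusted p = 0.0013), and the groups did not overlap. PDP1, the calcium-stimulated form, had 14.2, 14.7, 16.4 and 14.2 CPM with the mimic, against 14.9, 12.4, 14 and 13.7 CPM with the control. These values overlapped, and PDP1 did not pass (log2 fold change 0.12 ± 0.07 SE, adjusted p = 0.238).

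The ratio of the summed PDK to the summed PDP level per kilobase was 2.37 ± 0.118 with the mimic and 2.82 ± 0.142 with the control (SD, n = 4 each). The ratio ran from 2.22 to 2.49 in the mimic and from 2.69 to 2.97 in the control libraries. By coding length it was 1.41 ± 0.0703 with the mimic and 1.52 ± 0.0988 with the control, and the groups overlapped. RNA levels of kinases and phosphatases say nothing on the phosphorylation of the complex, which was not measured here.

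**Figure D3:**
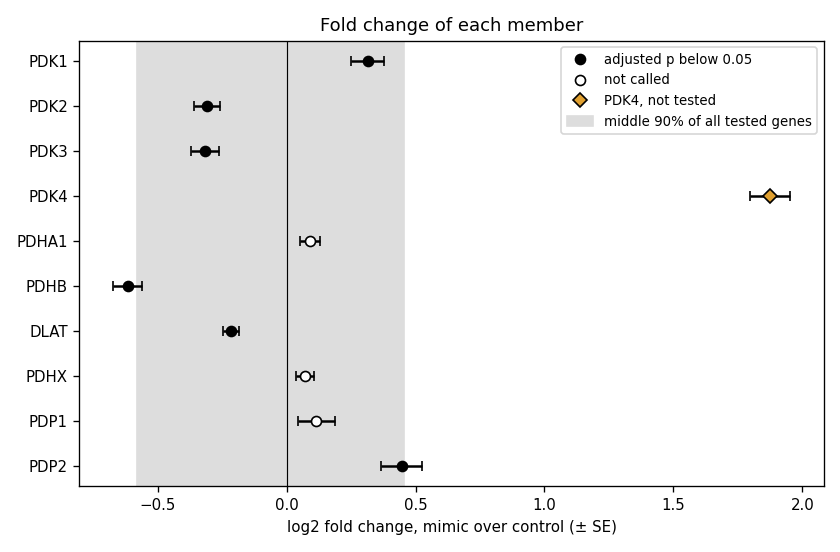
Log2 fold change of each member, mimic over control (x axis, points with ± SE from edgeR), with filled points for an adjusted p below 0.05, open points for members that were not called and a diamond for PDK4, which was not tested. The grey band holds the middle 90% of all tested genes, from -0.58 to 0.46. PDK4 at 1.87 and PDHB at -0.62 lie outside it.

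All 9 members other than PDK4 passed the filter on low counts. Of these, 2 (PDK1 and PDP2) were called higher with the mimic, 4 (PDK2, PDK3, PDHB and DLAT) were called lower and 3 were not called, and the same 6 had groups without overlap. Their median log2 fold change was 0.07. Of all 14977 tested genes, 38.1% were called, 18.3% higher and 19.9% lower, 36.9% had groups without overlap, 17.4% higher and 19.5% lower, and the median log2 fold change was 0.00. The comparison is the one in which PDK4 was picked, so these shares stand side by side and nothing is read from them.

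On the scale of CPM per kilobase of the longest transcript, the subunits stood above the kinases and phosphatases in both groups. PDHB had the highest level in both groups, 52.9 ± 3.83 with the mimic and 81.1 ± 4.35 with the control, followed by DLAT at 44.7 ± 0.919 with the mimic and 51.9 ± 0.508 with the control. PDHA1 had 44.5 ± 1.77 with the mimic and 41.8 ± 1.416 with the control, so DLAT and PDHA1 did not differ beyond their spread with the mimic. PDHX had 38.7 ± 0.859 with the mimic and 36.8 ± 1.155 with the control, and PDK3 19.7 ± 1.29 with the mimic and 24.5 ± 1.04 with the control. PDP2 at 13.9 ± 1.44 and PDK4 at 13.4 ± 1.39 did not differ beyond their spread with the mimic, whereas with the control PDP2 had 10.2 ± 0.922 and PDK4 3.64 ± 0.203 (SD, n = 4 each). PDK2, PDP1 and PDK1 had the lowest levels with the mimic, from 6.82 ± 0.266 for PDK2 to 1.18 ± 0.0519 for PDK1. The order depends on the length: by coding length, added after seeing the data, PDHA1 had 120.4 ± 4.80, DLAT 102.6 ± 2.11 and PDHB 74.7 ± 5.41 with the mimic, and PDHA1 had 113.1 ± 3.83, DLAT 119.1 ± 1.16 and PDHB 114.7 ± 6.15 with the control.

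Replicates 1 and 2 stood apart from replicates 3 and 4 for some members, and also in the correlations over all tested genes given below. In PDK4 the mean of mimic replicates 3 and 4 was 0.25 lower on the log2 scale than that of mimic replicates 1 and 2, while the control replicates differed by 0.07 the other way. The log2 fold change of PDK4 was thus 2.03 within replicates 1 and 2 and 1.71 within replicates 3 and 4. PDP2 was lower in replicates 3 and 4 in both groups, with log2 differences of -0.23 with the mimic and -0.22 with the control, and PDHB was higher there, by 0.15 with the mimic and 0.12 with the control. Within these sets PDP2 had log2 fold changes of 0.45 and 0.44, and PDHB of -0.63 and -0.60. The 6 called members were called within each set. The labels name no batch, and the part of the replicate sets in the PDK4 level was not tested.

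SLC16A1, MPC1 and PDPR were the genes called among those of pyruvate handling around the complex. Of 17 listed, 16 were tested, of which 0 were higher, 3 lower and 13 not called, with a median log2 fold change of 0.05, beside 18.3% higher and 19.9% lower and a median of 0.00 over all tested genes. With the replicate block 2 were higher, and the block raised the calls over all tested genes as well, to 25.2% higher and 25.6% lower. DLD, the dehydrogenase shared with the related complexes, had 274 ± 11.1 CPM with the mimic and 255 ± 10.6 CPM with the control (SD, n = 4 each), and did not pass (log2 fold change 0.10, adjusted p = 0.0674). It passed with the block (adjusted p = 0.00704), without mimic replicate 1 (adjusted p = 0.0442) and without control replicate 4 (adjusted p = 0.0401). DLD had an 8mer site for miR-194 in its longest 3′ UTR, beside 4.26% of all genes with a searched 3′ UTR.

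MPC1, a chain of the mitochondrial pyruvate carrier that the table lists under its older symbol BRP44L, had 29.4 ± 1.32 CPM with the mimic and 36.3 ± 2.21 CPM with the control, and fell by 0.31 ± 0.05 (SE, adjusted p = 0.000945). Its partner MPC2, listed as BRP44, had 356 ± 34.5 CPM with the mimic and 344 ± 31.5 CPM with the control, and did not pass (log2 fold change 0.05, adjusted p = 0.679). SLC16A1, a lactate and pyruvate transporter of the plasma membrane, had 65.6 ± 5.27 CPM with the mimic and 85.0 ± 3.07 CPM with the control, and fell by 0.37 ± 0.06 (SE, adjusted p = 0.000275). Its 3′ UTR held a 7mer-A1 site, and that of MPC1 held only a match to bases 2 to 7. An 8mer or 7mer site was in 20.6% of all searched 3′ UTRs.

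PDPR, the regulatory subunit of the phosphatase PDP1, had 69.0 ± 3.08 CPM with the mimic and 76.9 ± 4.07 CPM with the control, and fell by 0.16 ± 0.05 (SE, adjusted p = 0.0224). It was no longer called without mimic replicate 1 (adjusted p = 0.0522) or 3 (0.0688), without control replicate 1 (0.0503), 3 (0.0642) or 4 (0.0661), and within replicates 1 and 2 (0.149). The longest 3′ UTR of PDPR, of 5658 bases, held an 8mer site at position 2112, while its shortest annotated 3′ UTR had 252 bases. A share among 3′ UTRs of like length was not taken for PDPR. LIPT1, which transfers the lipoyl cofactor, did not pass (log2 fold change 0.24, adjusted p = 0.124), though it passed with the block (adjusted p = 0.011) and without control replicate 4 (adjusted p = 0.0344).

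Fatty acid oxidation, PPAR and FOXO genes, to which PDK4 is tied as a target in other tissues, held calls in both directions, as did the whole table. Of 29 listed, 26 were tested, of which 7 were higher, 5 lower and 14 not called, beside 18.3% higher and 19.9% lower over all tested genes. The median log2 fold change of the list was 0.04, beside 0.00. With the replicate block 12 were higher, beside 25.2% of all tested genes. LPIN1, a phosphatidate phosphatase and coactivator, rose by 0.29 ± 0.05 (SE, adjusted p = 0.00126), with 68.1 ± 4.41 CPM with the mimic and 55.8 ± 2.60 CPM with the control (SD, n = 4 each). ACADM, a mitochondrial acyl-CoA dehydrogenase, fell by 0.21 ± 0.03 (SE, adjusted p = 0.000428), and FOXO3, a forkhead factor, by 0.26 ± 0.06 (SE, adjusted p = 0.00624). The longest 3′ UTR of ACADM held a 7mer-A1 site. ACAA2, a mitochondrial thiolase, fell by 0.59 ± 0.11 (SE, adjusted p = 0.00101) at a low level of 2.56 ± 0.246 CPM with the mimic and 3.87 ± 0.329 CPM with the control (SD, n = 4 each). These genes were named for their small p and do not give the balance of the list. Transcription factors on the list were called in both directions. PPARG, PPARGC1A and FABP3 did not pass the filter, with at most 11 counts in any library.

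**Figure D4:**
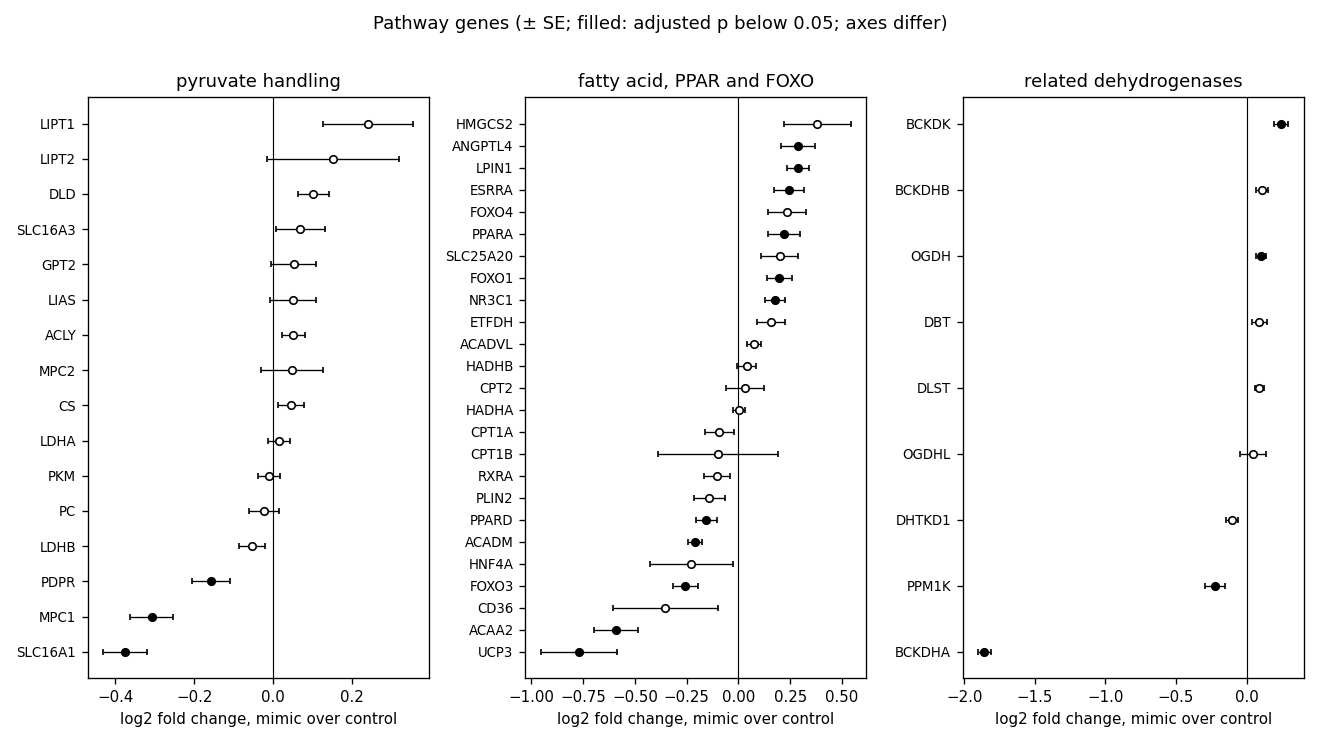
Log2 fold change, mimic over control (x axis, ± SE, scales differ between panels), of tested genes of the 3 pathway lists, ordered within each panel. Filled points had an adjusted p below 0.05. BCKDHA at -1.86 stands far below the other genes of the related dehydrogenases, and no gene of pyruvate handling is filled on the positive side.

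The related keto acid dehydrogenases share their architecture with pyruvate dehydrogenase, and BCKDK belongs to the same mitochondrial kinase family as the PDKs. Of 9 genes, all tested, 2 were higher, 2 lower and 5 not called, beside 18.3% higher and 19.9% lower over all tested genes, and the median log2 fold change was 0.09, beside 0.00. BCKDK rose by 0.24 ± 0.05 (SE, adjusted p = 0.00285), with 62.4 ± 3.87 CPM with the mimic and 52.7 ± 2.24 CPM with the control (SD, n = 4 each). BCKDHA, the alpha chain of the branched-chain enzyme and the counterpart of PDHA1, had 14.2 ± 0.423 CPM with the mimic and 51.6 ± 1.24 CPM with the control (SD, n = 4 each). It fell by 1.86 ± 0.04 (SE, adjusted p = 2.41e-10), and its 3′ UTR of 397 bases held an 8mer and a 7mer-A1 site. Of all searched 3′ UTRs, 4.26% held an 8mer site, and a share at like length was not taken for BCKDHA.

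The other calls in this list were less firm. PPM1K, the phosphatase that opposes BCKDK, had a log2 fold change of -0.22 (adjusted p = 0.026). It was not called without mimic replicate 3 (adjusted p = 0.0805) or 4 (0.0706), or without control replicate 1 (0.0779), 2 (0.0643) or 3 (0.0516). OGDH, the first enzyme of the oxoglutarate complex, had 0.10 (adjusted p = 0.0393), and was not called without mimic replicate 4 (adjusted p = 0.0829) or without control replicate 1 (0.0757), 2 (0.094), 3 (0.0508) or 4 (0.0846), or within either replicate set, nor with library totals only (0.0793) or no filter on low counts (0.0524). DLST, the core of that complex, had 0.09 (adjusted p = 0.05003), and was called with the block (adjusted p = 0.0181), without mimic replicate 1 (0.0385) or 2 (0.0477), by DESeq2 (0.0353), by voom (0.0486) and with a filter of 1 CPM in 4 libraries (0.0444). With the block 5 of the 9 genes were higher, beside 25.2% of all tested genes.

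The genes nearest to PDK4 over the 8 libraries were PTPMT1, a mitochondrial phosphatase of cardiolipin synthesis, DDX3Y, an RNA helicase, PPP2R1B, a scaffold of protein phosphatase 2A, and RHOB, a small GTPase. Likeness was the root mean square difference between log2 CPM profiles, each centred on its own mean, among 10303 genes. It was 0.12 for PTPMT1, 0.17 for DDX3Y, 0.25 for PPP2R1B and 0.30 for RHOB. PTPMT1 averaged 66.0 ± 3.62 CPM with the mimic and 19.1 ± 0.765 CPM with the control (SD, n = 4 each). The groups differ strongly in all 5 genes, so this measure mainly ranks genes by the size of their rise. No member was among the 4.

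**Figure D5:**
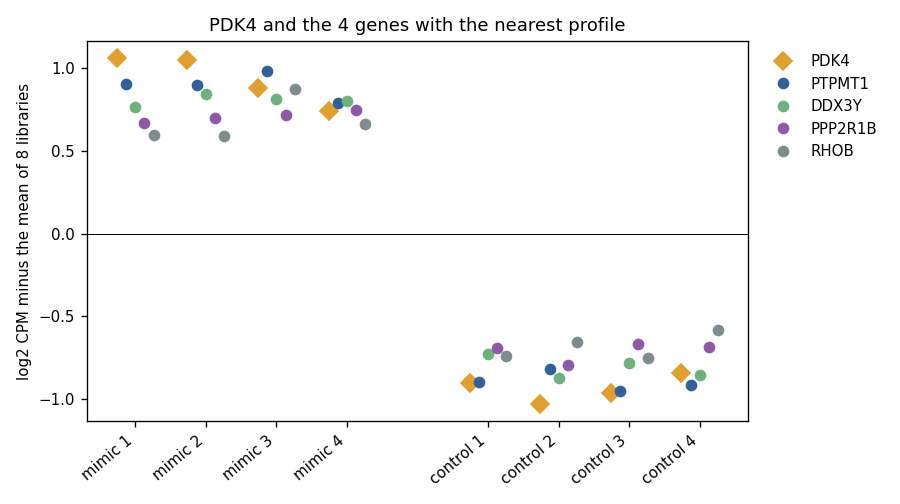
Log2 CPM minus the mean of the 8 libraries (y axis) for PDK4 (diamonds) and the 4 genes with the nearest profile (circles), with the 4 mimic libraries left and the 4 control libraries right. All 5 genes lie above 0 in each mimic library and below 0 in each control library.

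Library totals ran from 32485036 to 47248241 counts. The prostate luminal markers HOXB13, TMPRSS2, EPCAM, KRT8 and KRT18 were present, at 37.8 CPM or more in every library, and EPCAM, KRT8 and KRT18 rose. PECAM1 and CDH5, which define endothelial cells, had no count, and PTPRC, CD3E and LYZ, which define leukocytes, stayed at or below 0.170 CPM. The summed fibroblast markers were 44.8 to 53.1 CPM with the mimic and 41.5 to 48.5 CPM with the control, nearly all of it LUM and COL1A1. COL1A1 rose by 0.26 (adjusted p = 0.00813), and CD68, on the leukocyte list and also a lysosomal gene, rose by 0.78 (adjusted p = 0.000444). The part of these genes in the results above was not tested.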

How the data were processed

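RNA of 22Rv1 cells was sequenced in 8 libraries. The authors deposited raw read counts per gene symbol, 23346 symbols of which 3370 had no count. Per the submitters' processing notes, cutadapt 1.8.1, FastQC, STAR, R 3.2.3, edgeR 3.3 and hg19 were named, without their roles. For the counting program, annotation, strand setting and shared reads, nothing is given in the sources used here.

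The test was that of edgeR 4.0.16 under R 4.3.3 (filterByExpr, TMM, robust quasi-likelihood fit, group as the only term, Benjamini-Hochberg adjustment over 14977 genes, threshold 0.05). SE was computed as the absolute log2 fold change over the root of the F statistic. Alternatives used DESeq2 1.42.0 and limma 3.58.1 (voom), other scalings and filters, the replicate block and left-out libraries. Per-library log2 values used a prior count of 2. Steps were tested on simulated data.

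The members and lists were chosen with earlier results of these data known. Named genes were the members, DLD, MPC1, MPC2, the 5 smallest p of each list and the 4 profiles nearest to PDK4. Some genes of the pathway and marker lists are not reported here by name. Deviations from the group means were correlated between libraries of the same number ( 0.27, 0.34, 0.18 and 0.43), which met the pairing rule of 0.1. Mimic and control libraries with exchanged numbers 1 and 2, or 3 and 4, correlated as well (0.20 to 0.32), and the labels name no shared day. Replicates 1 and 2 of one group against 3 and 4 of the other correlated at -0.48 to -0.09 over all tested genes. The main test kept group as its only term, with the block as an alternative. Replicates were not duplicates of one another: chi-square over degrees of freedom was 3.77 to 17.6 between pairs of one group.

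Lengths, sites and exon overlaps are from GENCODE 29 on GRCh38, whereas the notes name hg19, and symbols were the only link between them. The longest 3′ UTR per gene was searched if it had 50 bases or more, which held for 89.8% of tested genes.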

Additional observations from a re-analysis of the deposited data

Results flagged for a closer look

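In PDHX, control replicate 4 stood apart from the other control libraries, with a log2 CPM of 6.68 against a median of 6.59 for the others, which is 102 CPM. In PPP2R1B, control replicate 2 stood apart at a log2 CPM of 5.66 against a median of 5.77 for the others. In each case the gap to the nearest library, divided by the range of the 4, exceeded Dixon's 95% critical value. Of 60 groups of 4 values checked, these 2 exceeded it, and chance gives about 1 in 20.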

How the results depend on the processing

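The calls of PDK1, PDK2, PDK3, PDHB, DLAT and PDP2 and their directions were kept in all 17 alternatives run for each, as were the missing calls of PDHX and PDP1. For these 8 genes the adjusted p ran from 2.99e-21 to 0.0152 where called and from 0.0598 to 0.497 where not. Over the alternatives without 1 library, members other than PDK4 called higher ran from 2 to 3 and lower stayed at 4, and all genes called higher ran from 2308 to 2729 and lower from 2543 to 2803. The PDK4 log2 fold change ran from 1.83 to 1.94 without 1 library, and took the values 2.03 (replicates 1 and 2 alone) and 1.71 (replicates 3 and 4 alone), and the cause was not tested.

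Without 1 library, pyruvate handling genes called higher ran from 0 to 2 and lower from 2 to 3, fatty acid, PPAR and FOXO genes higher from 5 to 8 and lower from 4 to 5, and related dehydrogenases higher from 1 to 4 and lower from 1 to 3. With the replicate block, the genes called higher numbered 2, 12 and 5 in these lists, and those called lower 3, 6 and 3. With the block, PDHA1, DLD, LIPT1 and DLST became called, and no other call changed among members and genes of these lists given with an adjusted p. The other changes of these list counts with the block came from list genes that the text does not name. Without 1 library, the list counts moved in part through PDPR, PPM1K and OGDH, which lost their calls as given above. Over all genes the block gave 3778 called higher and 3838 lower, against 2737 and 2975 without it. Related dehydrogenases called higher numbered 1 with library totals only, with no filter on low counts and within replicates 1 and 2. The cause of these moves was not tested. MPC2 had a log2 fold change of -0.031 within replicates 1 and 2, opposite in sign, and was not called in any alternative.

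Without 1 library the PDK shares of the mimic libraries ran from 2.85% to 2.90% for PDK1, 16.2% to 17.0% for PDK2, 47.1% to 48.6% for PDK3 and 32.1% to 33.4% for PDK4, and those of the control libraries from 2.49% to 2.58%, 22.0% to 23.1%, 64.7% to 66.0% and 9.45% to 9.93%. With the median transcript length the shares of PDK1 to PDK4 were 11.5%, 19.4%, 41.7% and 27.4% with the mimic and 10.0%, 25.9%, 56.0% and 8.09% with the control. With the coding length, added after seeing the data, they were 12.2%, 19.1%, 30.2% and 38.5% with the mimic and 12.0%, 29.02%, 46.1% and 12.9% with the control. The PDK to PDP ratio was 2.67 with the mimic and 3.17 with the control by median length, 1.41 with the mimic and 1.52 with the control by coding length, and without 1 library ran from 2.33 to 2.42 with the mimic and from 2.76 to 2.86 with the control. The moves with length follow from the divisor. With any annotated 3′ UTR in place of the longest, the same count of members, 2, held an 8mer or 7mer site, and the 4 nearest profiles were the same 4 genes with a prior count of 0.5.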
